A study of Bos taurus with 6 samples.

Results

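The genes described are those whose symbol begins with MRPL (proteins first placed in the large subunit) or MRPS (small subunit), taken from every probe set that the annotation of the Affymetrix Bovine Genome Array assigns to a single gene. On this array each transcript is read by a probe set, several short DNA probes that are combined into 1 value. In all, 84 of 24036 probe sets met this rule. They named 67 of 8189 genes, of which 45 encode proteins of the large subunit, 21 encode proteins of the small subunit, and MRPS36 was placed in neither. MRPS18A and MRPS30 are named for the small subunit but sit in the large one and were counted there. A further 11 gene symbols of this kind in the bovine RefSeq annotation (ARS-UCD2.0), MRPL1 and MRPS12 among them, were not analysed here. Of the 84, 3 probe sets, 1 each of MRPL14, MRPL46 and MRPS34, held the floor of the scale, 2.12, on all arrays, which left 81 probe sets for the tests. Each of these 3 genes had another probe set. Where a gene had several, the probe set with the highest mean over the 6 arrays stood for the gene. For all 67 genes that probe set averaged at least 5 on the log2 scale in both groups, and 4 of the other probe sets averaged less.

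Mitochondria carry their own ribosome, which translates the few proteins encoded by mitochondrial DNA, all of them subunits of the complexes of oxidative phosphorylation. Its RNA is made inside the organelle, whereas all of its proteins are encoded by nuclear genes, translated in the cytosol and imported. Some of these proteins descend from bacterial ribosomal proteins and others were added in the mitochondrial lineage, while the ribosomal RNA became shorter. Mitochondria of the bovine embryo descend from those of the oocyte, and oxidative phosphorylation is an energy source of the preimplantation embryo.

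The arrays compared late degenerative embryos with blastocysts, both made by in vitro fertilization of oocytes from abattoir ovaries and both graded on day 8. The 2 groups shared the fertilization and culture system, and both came from embryos that had compacted into morulae. Late degenerative embryos had then formed neither a clear inner cell mass nor a fluid-filled cavity (blastocoele), whereas blastocysts had both. Each group was measured as 3 pools, A, B and C, each of 20 embryos and hybridized to 1 array after amplification of the RNA. A pool held whole embryos of mixed parentage, so neither embryos nor cell lineages were measured singly. Values are given in the order A, B and C throughout, on the log2 scale of GCRMA (a normalization that corrects background from probe sequence and equalizes the arrays).

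Between 27.4% and 28.6% of all probe sets lay within 0.01 of the floor on each array. Degenerative pool A stood apart from the rest, with correlations of 0.933 to 0.938 to the other arrays, against 0.949 to 0.994 among those. Embryonic markers were present in both groups. POU5F1, a pluripotency factor, averaged 12.99 in degenerative pools and 12.51 in blastocyst pools. The 3 measured inner cell mass markers (of 6 listed) had a summed level of 14.18 to 14.98 in degenerative pools and 13.93 to 14.06 in blastocyst pools, without overlap. That sum was carried mostly by KLF4 (mean 13.87 in degenerative and 13.36 in blastocyst pools) and POU5F1, and little by SOX2 (8.77 and 7.74). Pools of POU5F1 and KLF4 did not overlap either (limma adjusted p = 0.602 and 0.628), and those of SOX2 did. All 5 measured trophectoderm markers (of 10 listed) averaged at least 5 in a group. Their summed level spanned 15.20 to 15.55 in degenerative pools and 15.30 to 15.70 in blastocyst pools, a sum carried mostly by KRT18. TFAP2A, a trophectoderm transcription factor, had 4.78, 6.98 and 6.47 in degenerative pools and 9.26, 8.96 and 8.70 in blastocyst pools (limma adjusted p = 0.470), without overlap. Of 8 cumulus and granulosa cell markers 3 reached 5, with a summed level of 11.61 to 11.98 in degenerative pools and 10.48 to 11.23 in blastocyst pools, while AMH and INHA were at the floor. Of 7 measured oocyte markers none averaged 5 in either group, and GDF9 and BMP15 were at the floor. Their summed level was 5.70 to 7.37 in degenerative pools and 5.31 to 5.51 in blastocyst pools, and ZP2 (6.16), ZP3 (5.42) and NLRP5 (5.03) were highest in degenerative pool A. The part of these cell types in the values below was not tested. In pooled whole embryos a lower value may come from fewer cells of a type or from less RNA per cell, which cannot be told apart.

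The question put to the arrays was whether RNA levels of the mitochondrial ribosomal protein genes differed between degenerative embryos and blastocysts. None of the 81 probe sets had an adjusted p up to 0.15 in limma, and the smallest was 0.491. Over all 18937 probe sets tested 0.0211% passed, and up to an adjusted p of 0.25, where still none of the 81 passed, 0.158%. None was called either by SAM (significance analysis of microarrays) at a false discovery rate of 15%, which called 0.354% of all probe sets. At a rate of 25%, SAM called 6 of the 81 (7.41%), against 4.65% of all. These 6 belonged to MRPL3, MRPL50, MRPS22, MRPS36 and, with 2 probe sets, MRPS35, and all were lower in degenerative embryos. MRPL28, higher by 0.84 ± 0.26 (limma standard error), was not called, whereas MRPL3, at -0.23 ± 0.08, was. For SAM the split by direction over all probe sets called is not given. The shared direction of the 6 is therefore not read as a trait of these genes.

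An unadjusted limma p under 0.05 was found for 12 of the 81 probe sets (14.8%), against 8.61% of all probe sets. Of these 4 were higher and 8 lower in degenerative embryos, and over all probe sets 3.34% were higher and 5.27% lower. With the replicate letter as a block the count was 7 (8.64%, against 9.45% of all), all of them lower in degenerative embryos, and 3 probe sets, of MRPL48, MRPL50 and MRPS36, were in both counts. None of the 4 higher probe sets was among them. For the fit with the block the split by direction over all probe sets is not given. The direction of the 7 is therefore not read as a trait of these genes. The 3 degenerative pools lay wholly above or wholly below the 3 blastocyst pools for 15 of the 81 probe sets (18.5%), against 15.4% of all. Of these 6 were above and 9 below, where the array as a whole had 6.48% above and 8.93% below. Counted over genes, 10 of 67 (14.9%, 4 higher and 6 lower) had an unadjusted p under 0.05, against 10.3% of all genes (4.68% higher and 5.65% lower), and the pools did not overlap for 13 of 67 (19.4%, 6 higher and 7 lower), against 18.1% of all genes (8.99% higher and 9.16% lower). The shares of probe sets and genes with a p under 0.05 were thus above those of the array without the block. For probe sets the share was below that of the array with the block. The same held without degenerative pool A (8.64%, against 10.6% of all). By overlap the shares were close to those of the array. These shares were not tested against the array.

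By the probe set with the highest mean, no gene differed by more than 1 on the log2 scale, which is a doubling, against 11% of all genes. Dimmer probe sets of MRPL39 (-1.67 and -1.59) and MRPS35 (-1.36) did. The backgrounds are not alike in signal. The median level of these genes was 10.44, against 8.27 over all genes, and 75.3% of all genes lay below it. A difference over 0.5 was measured for 15 genes (22.4%; 9 higher and 6 lower in degenerative embryos), against 32.7% of all genes. In direction the genes were mixed, with 36 higher and 31 lower (53.7% higher, against 54.5% of all genes). The differences ranged from -0.92 for MRPL50 to 0.99 for MRPS9, with quartiles of -0.24 and 0.29. Their median was 0.05, beside 0.02 for all genes.

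**Figure D1:**
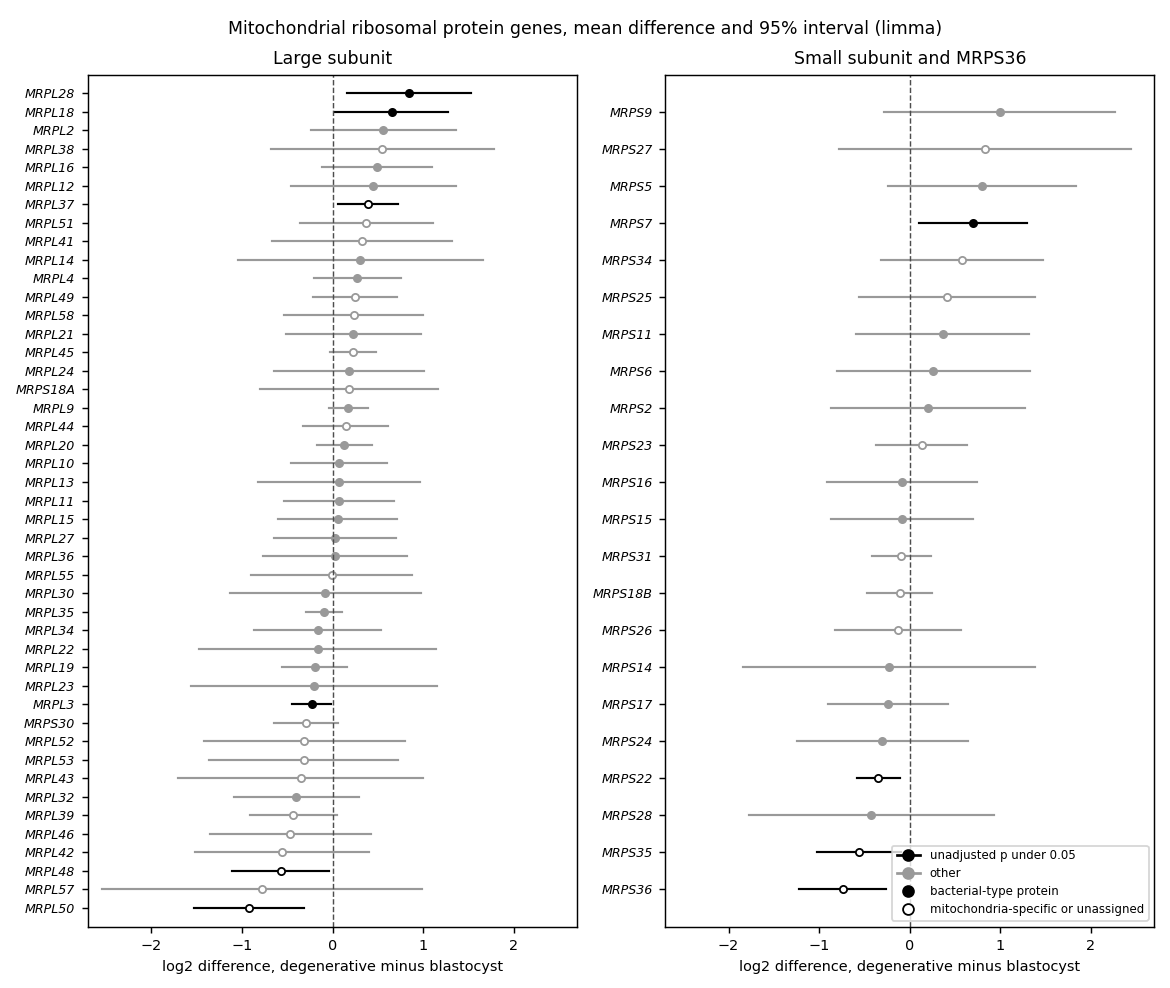
Log2 difference (degenerative minus blastocyst pools) of each of the 67 genes with its 95% interval from limma, large subunit at the left, small subunit and MRPS36 at the right, ordered by size. Black marks the 10 genes with an unadjusted p under 0.05, filled points bacterial-type proteins and open points mitochondria-specific proteins or MRPS36. Most intervals include 0, and the lowest and the highest gene are MRPL50 at -0.92 and MRPS9 at 0.99.

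The genes higher in all 3 degenerative pools than in any blastocyst pool were MRPS9, MRPL28, MRPS7, MRPL18, MRPL37 and MRPL9, of which 5 encode bacterial-type proteins. MRPS9, a homolog of the bacterial small-subunit protein S9, had 11.16, 9.83 and 9.44 in degenerative pools, against 9.02, 9.28 and 9.17 in blastocyst pools (NCBI gene 519302 on chromosome 11). Pool A of the degenerative embryos was far above the other 2, so that the difference of 0.99 ± 0.49 (standard error) had an adjusted p of 0.629 in limma and came to 0.48 without that pool. MRPS7 belongs to the head of the small subunit, and in humans its mutation impairs mitochondrial protein synthesis. It had 11.64, 11.25 and 10.83 in degenerative pools and 10.41, 10.61 and 10.61 in blastocyst pools (gene 509115 on chromosome 19), a difference of 0.70 ± 0.23 (limma adjusted p = 0.547). Degenerative pool A was again the highest, and the other 2 still exceeded every blastocyst pool.

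MRPL28, the homolog of bacterial L28, had 9.48, 9.30 and 8.99 in degenerative pools and 7.95, 8.53 and 8.76 in blastocyst pools (gene 508216 on chromosome 25). Here the blastocyst pools were the more scattered, with blastocyst pool A lowest, and the difference was 0.84 ± 0.26 (limma adjusted p = 0.537). MRPL18, a protein of the central protuberance of the large subunit, had 10.72, 10.12 and 10.23 in degenerative pools and 9.39, 9.73 and 10.00 in blastocyst pools (gene 534352 on chromosome 9). The groups came within a small distance of each other at blastocyst pool C, and the difference was 0.65 ± 0.24 (limma adjusted p = 0.577). MRPL37, a mitochondria-specific protein, had 11.19, 11.21 and 10.86 in degenerative pools and 10.59, 10.67 and 10.82 in blastocyst pools, with a difference of 0.39 ± 0.13. The difference of MRPL9, at 0.17 ± 0.08, was the smallest of the 6, with 12.38, 12.54 and 12.45 in degenerative pools and 12.33, 12.15 and 12.36 in blastocyst pools.

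The genes lower in all 3 degenerative pools than in any blastocyst pool were MRPL50, MRPS36, MRPL48, MRPS35, MRPL39, MRPS22 and MRPL3. Only MRPL3 among them encodes a bacterial-type protein. MRPL50 had the largest difference of these, with 9.15, 9.60 and 9.88 in degenerative pools against 10.53, 10.21 and 10.65 in blastocyst pools (gene 514753 on chromosome 8). It was 1.89-fold lower in degenerative embryos, a log2 difference of -0.92 ± 0.23 (limma adjusted p = 0.492), and stayed at -0.73 without degenerative pool A and -0.89 without blastocyst pool A. MRPS36 was first found with the small subunit and is better known as a component of the 2-oxoglutarate dehydrogenase complex of the citric acid cycle. It had 10.11, 9.53 and 9.94 in degenerative pools and 10.77, 10.44 and 10.59 in blastocyst pools (gene 613835 on chromosome 20). Its difference of -0.74 ± 0.18 had the smallest adjusted p of the 81 probe sets in limma, 0.491, and was -0.87 without degenerative pool A. The order of its pools was alike in both groups, A highest and B lowest.

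MRPS35, a mitochondria-specific protein of the small subunit, had nearly the same value in the degenerative pools, 8.90, 8.89 and 8.91, against 9.83, 9.35 and 9.20 in blastocyst pools (gene 513438 on chromosome 5). Its difference was -0.56 ± 0.18 (limma adjusted p = 0.542). MRPL48, of the central protuberance, had 10.28, 10.82 and 10.81 in degenerative pools and 10.99, 11.21 and 11.43 in blastocyst pools (gene 615873 on chromosome 15), a difference of -0.57 ± 0.20 (limma adjusted p = 0.571). Within each letter the degenerative pool was the lower, by 0.38 to 0.72 on the log2 scale. MRPS22, a mitochondria-specific protein whose mutation in humans causes a deficiency of oxidative phosphorylation, had 9.81, 9.99 and 10.10 in degenerative pools and 10.38, 10.27 and 10.29 in blastocyst pools (gene 532044 on chromosome 1). Its difference of -0.35 ± 0.09 was small and so was the spread of its pools (limma adjusted p = 0.509).

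MRPL3, which reaches towards the peptidyl transferase center, had 11.16, 11.35 and 11.42 in degenerative pools and 11.51, 11.58 and 11.52 in blastocyst pools, a difference of -0.23 ± 0.08. MRPL39 is a mitochondria-specific protein related in sequence to threonyl-tRNA synthetase. Its values were 10.84, 10.87 and 11.01 in degenerative pools and 11.67, 11.02 and 11.34 in blastocyst pools, a difference of -0.43 ± 0.18. The highest degenerative pool and the lowest blastocyst pool of MRPL39 were 11.01 and 11.02, so the groups barely separated.

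**Figure D2:**
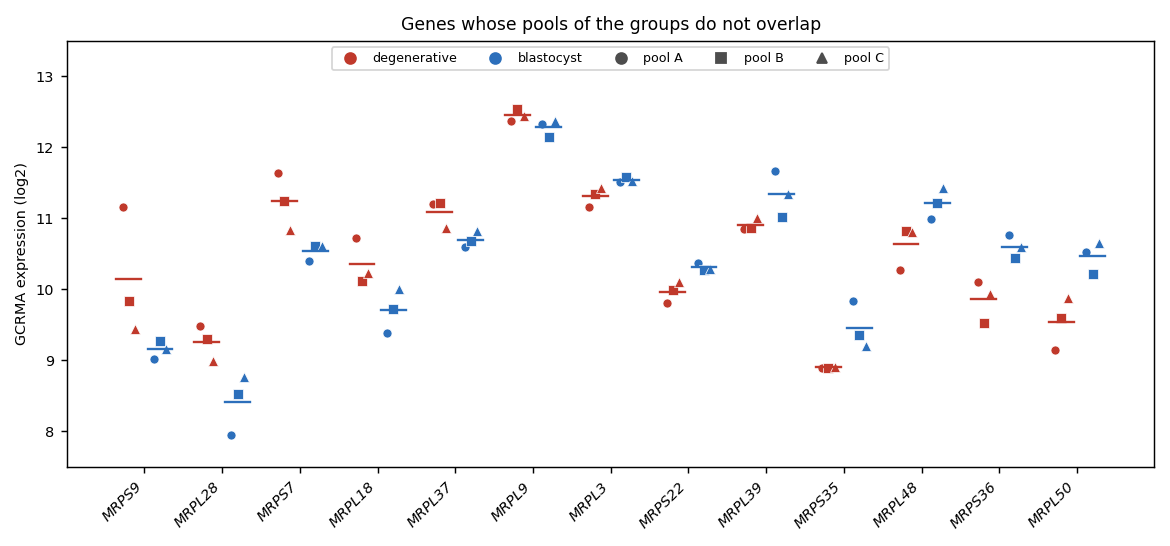
GCRMA expression (log2) of the 13 genes whose pools did not overlap, degenerative pools (red) left of blastocyst pools (blue), with circles, squares and triangles for pools A, B and C and a line at each group mean. The gap between the groups is small for MRPL9 and MRPL39, and the widest scatter is that of the degenerative pools of MRPS9.

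Other genes had differences of similar size and overlapping pools. MRPS27, a pentatricopeptide repeat protein of the small subunit, had 10.49, 8.89 and 8.27 in degenerative pools and 8.51, 8.31 and 8.35 in blastocyst pools. Its mean difference of 0.83 rested on degenerative pool A and was 0.19 without it. MRPS5, which lies near the mRNA entry of the small subunit, had 12.17, 11.33 and 10.80 in degenerative pools and 10.38, 10.60 and 10.91 in blastocyst pools, a difference of 0.80 and of 0.43 without degenerative pool A. MRPL38, of the central protuberance, had 10.46, 9.06 and 8.91 in degenerative pools and 8.95, 8.71 and 9.12 in blastocyst pools, and its difference of 0.55 was 0.06 without degenerative pool A. The others above 0.5 with overlapping pools were MRPS34 (0.58) and MRPL2 (0.56), and for both blastocyst pool A was the lowest of the 6 arrays. MRPS34 had 9.86, 9.98 and 9.73 in degenerative pools and 8.56, 9.55 and 9.73 in blastocyst pools, and its difference was 0.22 without blastocyst pool A.

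At the other end, MRPL57 had 6.52, 8.63 and 8.67 in degenerative pools and 8.70, 8.43 and 9.03 in blastocyst pools. Its difference was -0.78 with all pools and -0.07 without degenerative pool A, the only pool that stood apart. MRPL42 had 10.58, 11.42 and 11.85 in degenerative pools and 11.59, 11.93 and 12.01 in blastocyst pools, a difference of -0.56 and of -0.21 without that pool. MRPL46, a partner of MRPL48 in the central protuberance, differed by -0.47, and by -0.15 without it. MRPL46 is the neighbor of MRPS11 on chromosome 21, and MRPS11, of the small subunit, differed by 0.36 in the other direction.

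The genes were also divided by subunit. Of 45 large-subunit genes, 26 were higher and 19 lower in degenerative embryos, with a median of 0.07. Of 21 small-subunit genes, 10 were higher and 11 lower, with a median of -0.09. By over 0.5, 4 large-subunit genes were higher and 4 lower, and 5 small-subunit genes were higher and 1 lower. The subunits were not tested against each other. Without degenerative pool A the medians were 0.13 (large) and 0.21 (small), and without blastocyst pool A -0.13 and -0.03.

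Divided by descent, the genes of bacterial-type proteins and those of mitochondria-specific proteins differed, with all pools, in where the larger values lay. The division follows the structural nomenclature of the ribosome, which counts MRPS18A and MRPS18B, relatives of bacterial S18, as mitochondria-specific. Of 37 bacterial-type genes, 23 were higher and 14 lower, with a median of 0.07. Without degenerative pool A 28 were higher and 9 lower (median 0.21), and without blastocyst pool A 15 were higher and 22 lower (median -0.05). With all pools, 6 were higher by over 0.5 and 0 were lower by as much. This rested in part on blastocyst pool A. Without it MRPS14 (-0.64), MRPS28 (-0.59), MRPS24 (-0.54) and MRPL32 (-0.51) were lower by over 0.5. MRPS9, MRPS5, MRPS7 and MRPL28 stayed higher by over 0.5, whereas MRPL18 (0.49) and MRPL2 (0.31) did not. Of 29 mitochondria-specific genes, 13 were higher and 16 lower, with a median of -0.09, and here 3 were higher and 5 lower by over 0.5. Without degenerative pool A 18 were higher and 11 lower (median 0.06), and without blastocyst pool A 10 were higher and 19 lower (median -0.18). Most of these larger differences were smaller without degenerative pool A, as given above for MRPS9, MRPS27, MRPL38, MRPL57 and MRPL42. The contrast was noticed in these values and was not tested.

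The 2 paralogs of the MRPS18 family measured here had small differences. MRPS18A (large subunit) had 6.96, 6.47 and 6.92 in degenerative pools and 5.88, 6.81 and 7.12 in blastocyst pools, and the difference of 0.18 turned to -0.18 without blastocyst pool A. MRPS18B (small subunit) had 9.63, 10.11 and 9.82 in degenerative pools and 9.93, 9.98 and 9.99 in blastocyst pools, a difference of -0.11. Neither group stood apart in either gene.

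The most regular feature of these genes was not the contrast between the groups but the A pools of both. For 56 of 67 genes (83.6%) the lowest of the 6 arrays was an A pool, against 57.3% of all genes. It was not particular to them, with 80.6% for cytosolic ribosomal protein genes and 83.5% for oxidative phosphorylation genes. Blastocyst pool A was the lowest blastocyst pool for 55 genes (82.1%, against 54.6% of all genes). Among them were 36 of the 37 bacterial-type genes and 19 of the 29 mitochondria-specific genes. Degenerative pool A was the lowest degenerative pool for 41 genes (61.2%, against 44.5%). For cytosolic ribosomal protein genes the share was 62.7% for blastocyst pool A and 83.6% for degenerative pool A. For oxidative phosphorylation genes it was 79.7% and 77.2%. Within a group, a tie for the lowest value that included pool A, as at the floor, was counted for pool A. Over the 6 arrays such a tie went to degenerative pool A. Ties can therefore raise the shares over all genes, whereas the 67 genes averaged well above the floor. The median over the genes was 10.47, 10.57 and 10.61 in degenerative pools and 10.12, 10.46 and 10.65 in blastocyst pools. Over all genes it was 8.35, 8.41 and 8.24 in degenerative pools and 8.16, 8.28 and 8.35 in blastocyst pools.

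**Figure D3:**
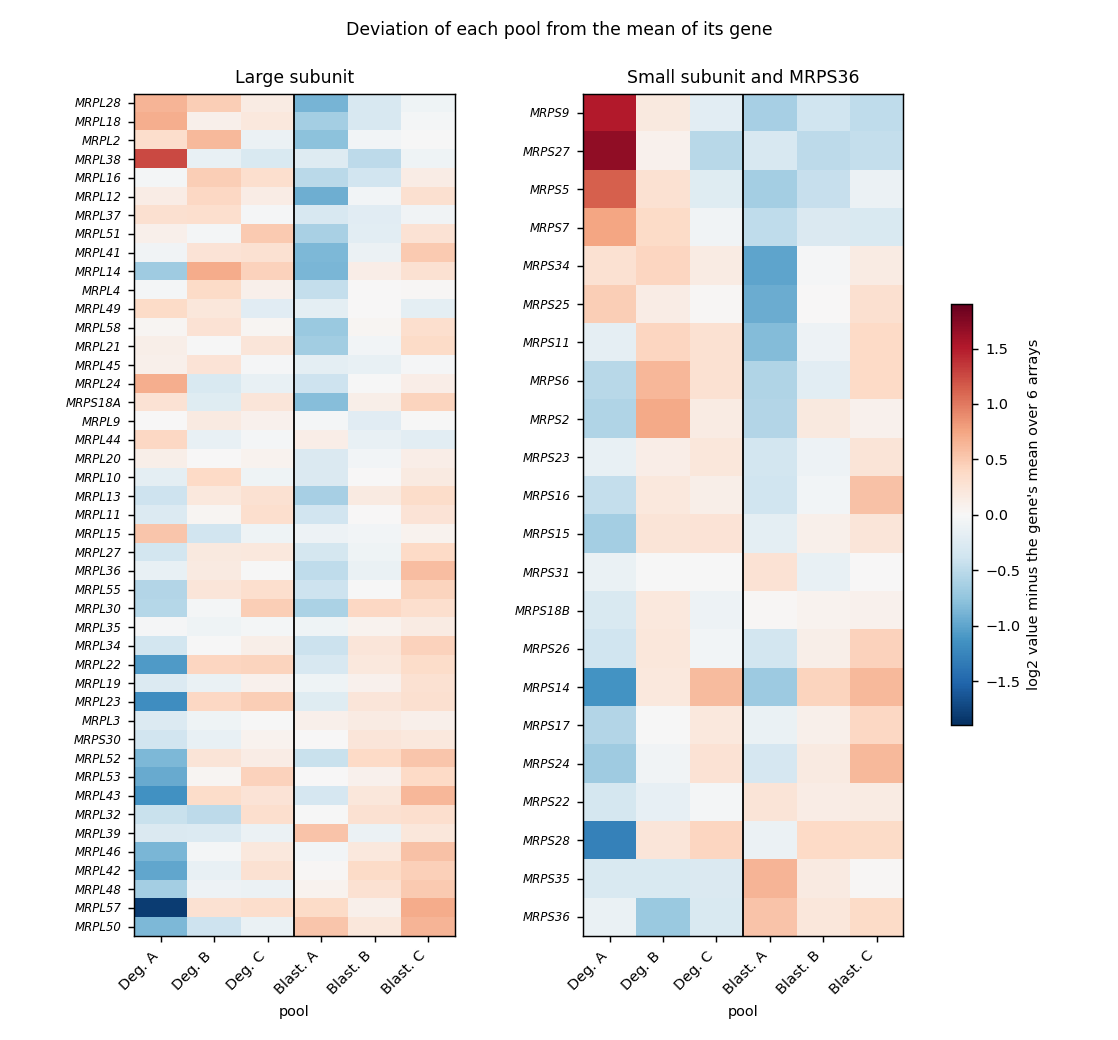
Deviation of each pool from the mean of its gene over the 6 arrays (log2, color scale), with genes ordered by their difference from the highest (top) to the lowest, degenerative pools left of the line and blastocyst pools right of it. Blastocyst pool A is below the mean (blue) in most genes, and degenerative pool A runs from the strongest red at MRPS27 and MRPS9 to the darkest blue at MRPL57.

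Degenerative pool A was the less uniform of the pair. It was above both other degenerative pools by over 1 in 3 genes (MRPS27, MRPL38 and MRPS9), and below both by over 1 in 7 (MRPL57, MRPL23, MRPS28, MRPL22, MRPL43, MRPS14 and MRPL14). The shares over all genes are not given for these counts, so they do not set these genes apart from the array. MRPS28 had 8.82, 10.33 and 10.51 in degenerative pools and 9.99, 10.48 and 10.47 in blastocyst pools. MRPS14 had 10.47, 11.81 and 12.21 in degenerative pools and 10.92, 12.04 and 12.23 in blastocyst pools, so that in this gene both A pools were low. The letters are not described as a shared day or batch. Lumican (LUM), a marker of cumulus and granulosa cells, was also low in both A pools, with 5.0, 11.07 and 10.95 in degenerative pools and 5.25, 8.40 and 10.15 in blastocyst pools, whereas HAS2 of the same list was highest in the A pools, with 11.80 in degenerative pool A and 10.82 in blastocyst pool A. The part of these cells, and of the A pools' RNA, in the values of the ribosomal protein genes was not tested.

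Leaving out 1 A pool moved the balance of directions, and the direction of the move depended on which. Without degenerative pool A, 46 genes were higher and 21 lower in degenerative embryos, with a median of 0.17. Without blastocyst pool A, 25 were higher and 42 lower, with a median of -0.13. Without both the median was 0.00. The sign turned in 16 genes when degenerative pool A was left out and in 13 when blastocyst pool A was, counts without a share over all genes beside them. The median level of these genes varied between pools of a group by 0.20 (SD). That SD describes single pools and not a difference between group means, so it gives no test of these medians.

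Without degenerative pool A, 7 probe sets had an unadjusted p under 0.05 (8.64%, against 10.6% of all probe sets), and none passed the adjusted threshold, which 0.222% of all passed (smallest adjusted p of the 81 = 0.339 in limma). Of the 7, 6 were also among the 12 of all pools. They belonged to MRPL3, MRPL50, MRPS7, MRPS22, MRPS35 and MRPS36, and the seventh was of MRPS9. Without blastocyst pool A there were 8 of the 81 (against 5.78% of all probe sets). They belonged to MRPL28, MRPL35, MRPL48, MRPL50, MRPS22, MRPS35, MRPS36 and, with a dimmer probe set, MRPS9. In this fit MRPL28 (0.61) and MRPS9 (0.61) were higher in degenerative embryos and the rest lower. MRPL50, MRPS22 and MRPS36 thus had the same probe set in each of these counts, lower in degenerative embryos. For MRPS35, also lower, the probe set changed. Without degenerative pool A only its dimmer probe set was counted, and without blastocyst pool A only its brighter one. These fits share most of their arrays, so the counts are not independent of each other. With the replicate block MRPL50 and MRPS36 also had a p under 0.05, whereas MRPS22 and both probe sets of MRPS35 did not.

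**Figure D4:**
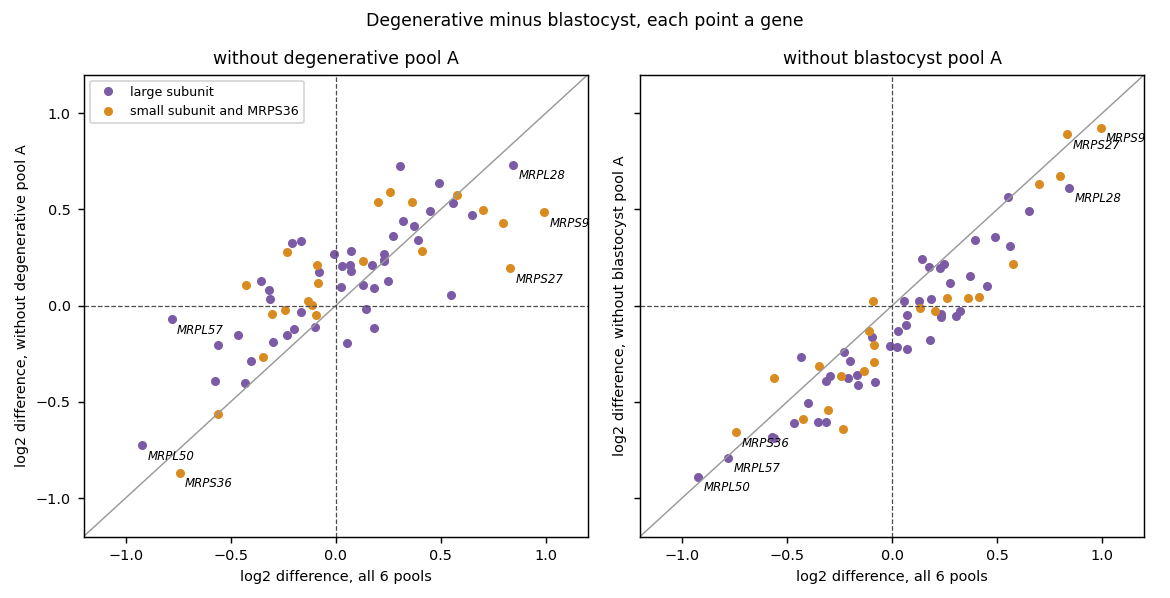
Log2 difference (degenerative minus blastocyst) of each gene without degenerative pool A (left) and without blastocyst pool A (right), against the difference with all 6 pools, with large-subunit genes in purple and small-subunit genes and MRPS36 in orange. The gray line marks equal values. Points lie mostly above it at the left, where 46 genes are above 0, and below it at the right, where 25 are, while MRPL50 and MRPS36 stay at the low end of both panels.

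Compared letter by letter, degenerative pool A was higher than blastocyst pool A for 37 of 67 genes (median difference 0.07), and degenerative pool B was higher than blastocyst pool B for 42 (0.15). Degenerative pool C was higher than blastocyst pool C for 20 (-0.10). Over all genes the shares higher were 52.3% for A, 52.8% for B and 36.8% for C, and for these genes 55.2%, 62.7% and 29.9%. In 26 genes all 3 letters had the same direction, a count given without the share over all genes and so not read as a trait of these genes.

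There were 11 genes that had more than 1 tested probe set, which gives a second reading of the same gene from other probes on the same arrays. In MRPS35 the dimmer probe set had 5.51, 6.46 and 6.74 in degenerative pools and 7.87, 7.35 and 7.58 in blastocyst pools, a difference of -1.36 ± 0.37 (limma adjusted p = 0.514), which was larger than the -0.56 of the brighter one and in the same direction. In MRPL39 all 3 probe sets were lower in degenerative embryos. The second had 6.96, 7.21 and 8.56 in degenerative pools and 10.12, 8.54 and 9.08 in blastocyst pools, a difference of -1.67 ± 0.63 (limma adjusted p = 0.580). The third averaged under 5 and differed by -1.59, and both were thus more than 3 times as far apart, on the log2 scale, as the brightest.

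In MRPS28 both probe sets were lower, by 0.43 and 0.51 on the log2 scale, and only the dimmer separated the groups. In MRPS9 the second probe set had 8.03, 7.68 and 7.64 in degenerative pools and 7.70, 6.95 and 7.39 in blastocyst pools, a difference of 0.44, and the third was near the floor. MRPL23 (-0.21, -0.21 and -0.19), MRPL43 (-0.35 and -0.30), MRPS14 (-0.23 and -0.45) and MRPL20 (0.13 and 0.20) had the same sign in all of their probe sets. MRPL57 was the exception, with -0.78 for the brighter and 0.31 for the dimmer probe set. For MRPL30 (-0.08) and MRPS2 (0.20) the other probe set was at the floor in nearly every pool.

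**Figure D5:**
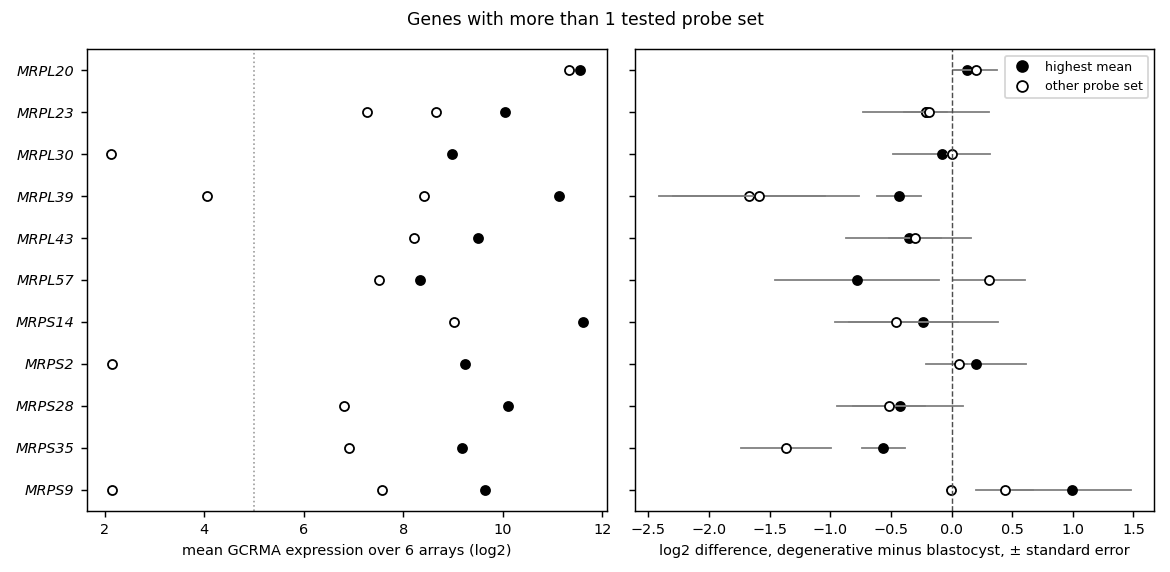
Mean GCRMA expression over the 6 arrays (left, dotted line at 5) and log2 difference with its standard error (right, degenerative minus blastocyst) for each probe set of the 11 genes with several. Filled points are the probe set with the highest mean. The dimmer probe sets of MRPL39 and MRPS35 lie further below 0 than the brightest, and those of MRPL57 lie on both sides.

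Probe sets of MRPL27, MRPL9, MRPL53, MRPL22 and MRPL45 had the highest signals, up to a mean of 12.54. A signal depends on the probes as well as on the transcript, so this order of signals is no order of transcript abundance. MRPL22 lies at the exit of the nascent chain, and MRPL45 joins the large subunit to the inner membrane. MRPL45 had 12.01, 12.18 and 11.89 in degenerative pools and 11.73, 11.77 and 11.89 in blastocyst pools, a difference of 0.23 ± 0.10. The others differed by 0.03 (MRPL27), -0.32 (MRPL53) and -0.17 (MRPL22), with overlapping pools. MRPL14, whose probe set had the lowest signal and which lies at the face between the subunits, averaged 6.67 and differed by 0.31.

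A further 5 proteins of the mitochondrial ribosome carry other symbols and were measured. DAP3, a GTP-binding protein of the small subunit first described in cell death, differed by 0.31 and PTCD3 by 0.39. GADD45GIP1 differed by 0.21, AURKAIP1 by -0.07 and CHCHD1 by -0.31. The pools overlapped in all 5, and none had an unadjusted p under 0.05. In DAP3 the value of 10.55 in degenerative pool A was the highest of the 6 arrays, and the others lay between 9.66 and 10.07.

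The other genes of mitochondrial translation, 48 measured of those listed, encode tRNA synthetases (13), translation factors (14) and proteins that assemble the ribosome (21). Of these, 26 were higher and 22 lower, with a median of 0.00. None passed the adjusted threshold in limma, and 3 (against 10.3% of all genes) had an unadjusted p under 0.05. With the replicate letter as a block there were 7 (against 10.7% of all genes), namely TARS2, NARS2, GATC, GUF1, RBFA, GTPBP10 and MTERF3, and 0 of the 3 without the block were among them. RCC1L, an assembly factor, had 11.66, 11.37 and 11.23 in degenerative pools and 10.31, 10.83 and 10.74 in blastocyst pools, a difference of 0.79 ± 0.19 (limma adjusted p = 0.483). MPV17L2, an inner membrane protein needed for assembly in human cells, had 9.22, 10.37 and 10.25 in degenerative pools and 11.16, 10.86 and 11.14 in blastocyst pools, a difference of -1.10 ± 0.35 (limma adjusted p = 0.542). These 2 assembly genes thus separated the groups in opposite directions. MTIF2, the initiation factor that brings the first tRNA, had 8.40, 8.21 and 8.31 in degenerative pools and 8.53, 9.21 and 8.85 in blastocyst pools, a difference of -0.55 ± 0.19 (limma adjusted p = 0.563).

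The synthetases ran against the ribosomal proteins in degenerative pool A. Their median deviation from the group mean of each gene was 0.51 in that pool, whereas that of the ribosomal protein genes was -0.20. The synthetases were not alone in this. It was 0.30 for the translation factors, 0.20 for the assembly proteins and 0.26 for genes of mitochondrial transcription and RNA processing. Without degenerative pool A the median difference of the synthetases was -0.17 and that of the ribosomal protein genes 0.17. It was -0.18, 0.10 and -0.04 for the other 3 lists, in the same order. This contrast was not tested.

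Transcription factors that act on nuclear genes for mitochondrial proteins were measured in 5 of 9 cases. MYC, a driver of ribosome production, had 4.95, 8.24 and 7.66 in degenerative pools and 9.82, 9.60 and 9.16 in blastocyst pools, a difference of -2.57 ± 0.95 (limma adjusted p = 0.578, unadjusted p = 0.0457, or 0.0862 with the replicate block). Every degenerative pool was below every blastocyst pool, and the difference was -1.57 without degenerative pool A. NRF1, a nuclear activator of genes for mitochondrial proteins, had 8.38, 5.79 and 6.75 in degenerative pools and 4.70, 5.39 and 6.0 in blastocyst pools, so the groups overlapped. Its difference of 1.61 ± 0.78 (limma adjusted p = 0.628) was 0.91 without degenerative pool A. None of the 11 measured genes of mitochondrial transcription and RNA processing (of 16 listed) had an unadjusted p under 0.05, and with the replicate block ELAC2 did.

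Larger groups of housekeeping genes are given for comparison. Of 67 cytosolic ribosomal protein genes, 16 were higher and 51 lower in degenerative embryos, with a median of -0.13, and without degenerative pool A 42 were higher and 25 lower. Of 79 oxidative phosphorylation genes, the assembly partners of what the mitochondrial ribosome makes, 25 were higher and 54 lower, with a median of -0.08, and without that pool 53 were higher and 26 lower. None of either group passed limma's adjusted threshold. The lowest of the 6 arrays was an A pool for 80.6% of the cytosolic ribosomal protein genes and 83.5% of the oxidative phosphorylation genes, shares like the 83.6% of the mitochondrial ribosomal protein genes. RPL10A (-0.36) and RPL14 (-0.21) of the cytosolic ribosome and NDUFB5 (-0.55) and COX7A2L (-0.43) of the respiratory chain had an unadjusted p under 0.05, all lower in degenerative embryos. With the replicate block NDUFB5 and COX7A2L kept it, whereas RPL10A and RPL14 did not.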

How the data were processed

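The deposited values are log2 expression per probe set, which the authors computed by GCRMA (the submitters' processing notes name version 2.14.1) for 3 degenerative and 3 blastocyst pools. The number of pools limits precision. Controls (20 probe sets) and 5079 constant probe sets were not tested. Limma 3.58.1 (R 4.3.3) tested degenerative minus blastocyst pools (lmFit, eBayes, Benjamini-Hochberg over 18937 probe sets, two-sided), and SAM was rewritten with all 20 relabelings. An exact permutation test of 3 pools against 3 cannot go below 0.10 and was not used. Scripts were tested on simulated data. The platform's annotation gave gene names, which all 84 probe sets kept in RefSeq. Genes named were those with an unadjusted p under 0.05 or without overlap, the 8 largest differences each way, the 5 brightest and 3 dimmest, those with several probe sets and the MRPS18 family. From other lists, genes with an unadjusted p under 0.05 were named, and others after their values were seen. Members and lists were chosen with earlier results of these data known. Deviations from the group means correlated between pools of the same letter (r = 0.373 for A, 0.180 for B and 0.275 for C), so the letter was also fitted as a replicate block. Alternatives were centring, a filter on dim probe sets, the variance model, array weights, the block, leaving out pools, averaging probe sets and other thresholds. No sequences were used here.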

Additional observations from a re-analysis of the deposited data

How the results depend on the processing

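No probe set of a mitochondrial ribosomal protein gene was called by limma under any alternative run. The smallest adjusted p of a named gene was 0.192, for MRPS36 with array weights. With an unadjusted p under 0.05 there were 12 probe sets (14.8%, against 8.61% of all). With the replicate block there were 7 (8.64%, against 9.45% of all). Without degenerative pool A there were 7 (8.64%, against 10.6% of all), and without blastocyst pool A 8 (against 5.78% of all). The count was 6 when probe sets averaging under 5 in both groups were dropped, and 7 without both A pools. With 1 pool left out it ranged from 5 (without degenerative pool B) to 15, and was 6 without blastocyst pool B. Where no share over all is given, the count is no measure of gain or loss. Of the other genes of mitochondrial translation, 3 had such a p (against 10.3% of all genes). With the replicate block there were 7 (against 10.7% of all genes), with 0 of the 3 among them. The count was 5 with array weights and 7 without both A pools. With 1 pool left out it ranged from 1 (without blastocyst pool B) to 6 (without degenerative pool C). These last counts also have no share over all genes beside them. With the replicate block, a paired fit, no probe set of the array passed the adjusted threshold. With 1 pool left out, the median difference ranged from -0.13 to 0.20 over all genes of the ribosome, from -0.13 to 0.21 for the large subunit and from -0.11 to 0.21 for the small subunit. Of 546 values of 42 named genes under 13 alternatives, 27 changed sign, all of them in 12 genes that were not called. With array weights these were MRPL22 (0.10), MRPL23 (0.092), MRPS18A (-0.22) and MRPS18B (0.0057), and without both A pools MRPL22 (0.14), MRPL23 (0.16), MRPL53 (0.0074) and MRPS18A (-0.27). With 1 pool left out the difference ranged from -0.42 to 0.33 for MRPL22, -0.49 to 0.32 for MRPL23, -0.40 to 0.17 for MRPL30, -0.62 to 0.13 for MRPL43, -0.62 to 0.081 for MRPL53, -0.64 to 0.28 for MRPS14, -0.24 to 0.00075 for MRPS18B, -0.74 to 0.11 for MRPS28, -0.13 to 0.22 for MRPL27, -0.11 to 0.54 for MRPS2, -0.054 to 0.72 for MRPL14 and -0.18 to 0.44 for MRPS18A. The cause of these changes was not tested. Centring each array moved all differences by 0.03. With 3 pools a group the intervals of most genes include 0.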
